A study of Mus musculus with 45 samples.

Results

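Perivascular macrophages (pvMΦ) of the mouse brain were compared between postnatal day 21 (P21, 4 libraries) and postnatal day 10 (P10, 3 libraries), across all genes. These 7 libraries were taken by the cell type and age on their labels, out of 45 libraries from a study that sorted microglia, meningeal macrophages (mMΦ) and pvMΦ from brains at several ages and sequenced their RNA in bulk. Animals of both groups were untreated C57BL/6J mice of genotype Cx3cr1GFP/wt, kept under specific pathogen free conditions. In this genotype a GFP reporter sits in 1 allele of Cx3cr1, the fractalkine receptor gene, which mononuclear phagocytes of the brain express widely, so the reporter alone does not separate the 3 populations, and both ages carry the altered allele. Each replicate was 1 mouse, as the series' design states, and how the sort was gated is not recorded in the sources at hand. P21 replicate 4 was sequenced in batch S276, and the other 6 libraries in batch S232.

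Perivascular macrophages lie along the vessels that enter the brain, between the vessel wall and the astrocyte endfeet. They are long-lived cells known for scavenger receptors such as Mrc1, Lyve1 and Cd163, for sampling fluid and debris from the perivascular space, and for presenting antigen on MHC class II, the molecules that display peptides to CD4+ T cells. In mice the perivascular space is populated largely after birth, so the interval studied follows the seeding of the niche, and it overlaps with the period in which the brain myelinates.

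Total counts per library were between 19141764 and 24938737. Levels are given as CPM, that is counts divided by library size, after scaling by edgeR's trimmed mean of M values (TMM). Replicates are listed in the order 1 to 4 for P21 and 1 to 3 for P10, and a fold change is the log2 ratio of P21 over P10. The ± after a fold change is an approximate standard error, the absolute fold change divided by the square root of the F statistic of its test. A gene was called at an adjusted p under 0.05 (Benjamini-Hochberg, edgeR quasi-likelihood test), either in the fit on these 7 libraries or in a fit on all 45 libraries with a batch term, which was an alternative. The P21 libraries scattered more than the P10 libraries: the mean correlation of a library with the others of its group was 0.675 to 0.747 at P21 and 0.908 to 0.924 at P10, and the common dispersion was 0.382 at P21 and 0.106 at P10. At equal depth 12338, 13782, 14775 and 15575 genes were detected in the P21 libraries, and 16538, 15443 and 16015 in the P10 libraries. All 7 libraries held Y-linked transcripts, and P21 replicate 2 also held Xist at 7.21 CPM. Among the P21 libraries used for comparison, microglia replicate 1 held Xist at 121 CPM beside Y-linked transcripts at 74.4 CPM. Xist was at 5.96 and 5.86 CPM in microglia replicates 2 and 5 and at 14.3 CPM in mMΦ replicate 1, all with Y-linked transcripts. Whether such libraries held RNA of more than 1 mouse was not tested.

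The sorted population carried border macrophage markers at both ages. Mrc1, the mannose receptor, was at 1931, 1809, 3003 and 2145 CPM at P21 and 3038, 2157 and 2416 CPM at P10, and Pf4, a platelet-type chemokine that marks border macrophages, was at 3883, 3439, 3312 and 2770.1 CPM at P21 and 3492, 4324 and 3592 CPM at P10. Cd163, the haemoglobin scavenger receptor, was at 533, 654, 658 and 832 CPM at P21 and 442, 328 and 457 CPM at P10. Ms4a7, a membrane protein that separates border macrophages from microglia, was at 2343, 2505, 1992 and 1772 CPM at P21 and 1152, 1526 and 1248 CPM at P10. None of these 4 genes passed the test in either fit, although all P21 libraries lay above all P10 libraries for Cd163 and Ms4a7. Microglial defining genes were also present. P2ry12, the purinergic receptor of microglial processes, was at 3256, 2584, 918 and 2194 CPM at P21 and 1208, 982 and 1114 CPM at P10, and Sall1, a transcription factor of microglia, was at 35.8, 76.0, 6.14 and 49.1 CPM at P21 and 39.4, 21.3 and 21.3 CPM at P10. In bulk RNA, fewer cells of a type and less RNA per cell cannot be told apart.

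In the fit on the 7 libraries, 6 of 12458 genes were higher at P21 (0.0482% of those tested) and 0 were lower (0%), while 845 genes had an unadjusted p under 0.05. The 6 genes were Vcam1, Mbp, Apod, Dusp1, Btg2 and Ifi207, and the median log2 fold change over all genes was 0.02. The fit on 45 libraries called 64 of 17064 genes higher (0.375%) and 40 lower (0.234%). Vcam1 and Mbp were called in both. Of the 104 calls of the larger fit, 55 of the higher and 38 of the lower genes had no overlap between P21 and P10 libraries, 11 overlapped, and 95 had the same sign and an unadjusted p under 0.05 in the 7 libraries. Single libraries moved these counts. The 7-library fit called 0 genes without P10 replicate 1, P10 replicate 2 or P21 replicate 3 and 1 without P10 replicate 3, and 9 within batch S232, where P21 replicate 4 is absent. The 45-library fit called 31, 20 and 33 genes without P10 replicates 1, 2 and 3, and 36, 46, 159 and 78 without P21 replicates 1 to 4. In all of these 7 fits 16 of the 104 genes stayed called, 12 higher and 4 lower: Tsc22d3, Cst3, C1qb, Lyz2, Ctss, Ccl6, Ccl9, H2-Ab1, H2-DMa, Cd53, Cd81 and Itm2b were higher, and Kif18b, Oip5, Kif20a and Neil3 lower. Across all tested genes, P21 libraries lay wholly above P10 libraries in 683 (5.48%) and wholly below in 917 (7.36%).

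Vcam1 encodes an adhesion molecule that binds the integrin α4β1 on leukocytes. It was at 645, 693, 487 and 557 CPM in the P21 libraries and at 35.1, 24.6 and 54.1 CPM in the P10 libraries, so that even the lowest P21 library was several times above the highest P10 library. The mean was 596 ± 91.7 CPM at P21 (SD, n = 4) and 37.9 ± 14.98 CPM at P10 (SD, n = 3), a log2 fold change of 3.93 ± 0.32 (edgeR adjusted p = 0.00859). In the 4 libraries of P56 the lowest, median and highest values were 309, 628 and 1003 CPM. In the same interval Vcam1 also rose in mMΦ, by a log2 fold change of 3.36 ± 0.64 (adjusted p = 0.0408), while the change in microglia was 1.70 ± 0.61 (adjusted p = 0.23) and did not pass.

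Mbp, myelin basic protein, and Apod, apolipoprotein D, a lipocalin secreted by glia and fibroblasts, were the other large changes. Mbp was at 229.7, 301, 223 and 177 CPM at P21 and 25.9, 19.7 and 24.2 CPM at P10 (log2 fold change 3.27 ± 0.26, adjusted p = 0.00859). Apod was at 86.5, 125, 114 and 144 CPM at P21 and 13.4, 12.6 and 19.6 CPM at P10 (log2 fold change 2.90 ± 0.33, adjusted p = 0.0422). Neither gene had overlapping groups. Both are typical transcripts of cells other than macrophages, and the markers of those cells are given further on.

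Dusp1, a phosphatase that switches off MAP kinases, was at 2245, 2243, 2533 and 1903 CPM at P21 and 496, 486 and 598 CPM at P10. Btg2, an antiproliferative gene induced by p53 and growth factors, was at 1831, 2593, 2793 and 2427 CPM at P21 and 729, 733 and 804 CPM at P10. Their log2 fold changes were 2.03 ± 0.17 (adjusted p = 0.00859) and 1.63 ± 0.18 (adjusted p = 0.0422). Ifi207, an interferon-inducible DNA sensor of the PYHIN family, was at 357, 435, 423 and 344 CPM at P21 and 138, 112 and 122 CPM at P10 (log2 fold change 1.60 ± 0.18, adjusted p = 0.0422). The P21 libraries of these 3 genes were high in every case, including replicate 4 of the other batch. In the fit on 45 libraries the adjusted p was 0.0952 for Dusp1, 0.261 for Btg2, 0.498 for Ifi207 and 0.368 for Apod, above the threshold.

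**Figure D1:**
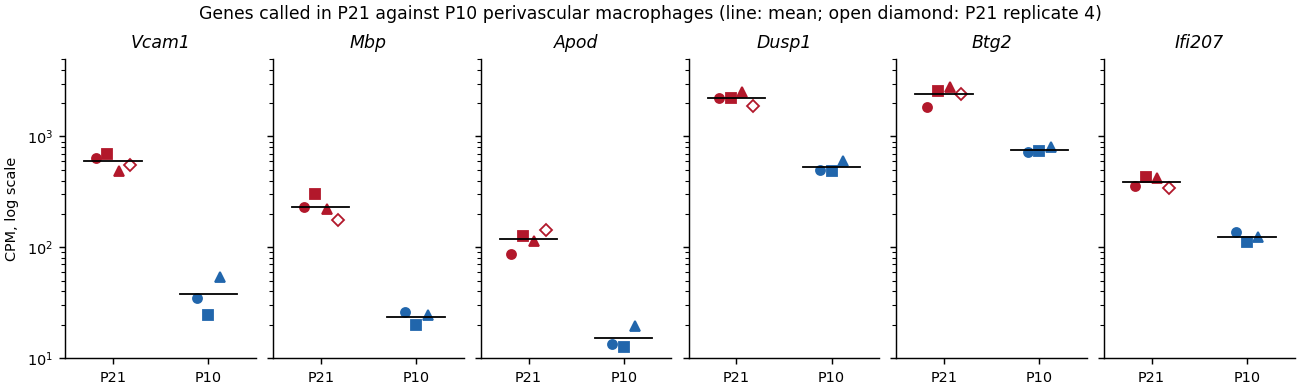
Levels in CPM (log scale) of the 6 genes called in the 7-library fit, with 1 point per library, P21 in red left of P10 in blue, and the mean as a line. In each panel all 4 P21 libraries lie above all 3 P10 libraries, with the widest gap for Vcam1 at 487 to 693 CPM in P21 libraries and 24.6 to 54.1 CPM in P10 libraries.

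Genes of cell division were lower at P21. Of 30 genes of G2/M phase and mitosis, all 30 had a fold change below 0 and 26 had all P21 libraries below all P10 libraries, a pattern of 7.36% of all genes. Their median log2 fold change was -2.60, beside 0.02 over all genes tested. Their summed level was 339, 627, 621 and 237 CPM in the P21 libraries and 1814, 1722 and 1896 CPM in the P10 libraries, so all P21 sums were low and P21 replicates 1 and 4 were the lowest. In the 7-library fit 0 of the 30 passed, and in the 45-library fit 3 fell (0.234% of all genes), namely Kif20a, Ttk and Bub1. The count was 1 without any 1 of P10 replicates 1 to 3, P21 replicate 2 or P21 replicate 4.

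Cdk1, the kinase that starts mitosis, was at 52.3, 57.9, 54.8 and 37.3 CPM at P21 and 148, 172 and 160.5 CPM at P10, with tight groups that did not overlap. Its log2 fold change was -1.71 ± 0.23, with an edgeR adjusted p of 0.069 in the 7 libraries and 0.179 in the 45. Kif20a, a kinesin of the cleavage furrow, was at 0.224, 0.147, 0.0455 and 0 CPM at P21 and 29.7, 31.4 and 51.1 CPM at P10. It fell in the 45-library fit (log2 fold change -8.53 ± 1.42, adjusted p = 0.00138) and had an adjusted p of 0.0865 in the 7 libraries. Ttk, the kinase Mps1 of the spindle checkpoint, was nearly absent at P21 with 0.0559, 0.0491, 0 and 0 CPM, against 7.45, 6.93 and 15.8 CPM at P10 (45-library log2 fold change -8.51 ± 1.89, adjusted p = 0.0236). Bub1, another checkpoint kinase, was at 0.224, 0, 0 and 0 CPM at P21 and 13.1, 10.2 and 21.4 CPM at P10 (adjusted p = 0.0314 in that fit).

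Further division genes outside that list also fell in the 45-library fit. Kif18b, a kinesin that shortens spindle microtubules, had 0 counts in all 4 P21 libraries and 11.4, 22.8 and 6.16 CPM at P10 (adjusted p = 0.00407). Against 3 counts over the P21 group that is 365-fold lower at P21. This bound covers counting error only and leaves out the wide scatter between P21 libraries. Mastl, the Greatwall kinase that sustains mitosis, also had 0 counts in all P21 libraries and was at 7.40, 0.467 and 11.8 CPM at P10, 182-fold lower at P21 by the same bound (adjusted p = 0.0416). Pif1, a DNA helicase, had 0 counts at P21 and 12.7, 3.23 and 1.55 CPM at P10, 146-fold lower at P21 by the same bound (adjusted p = 0.0236). Oip5, which helps load the centromeric histone, was at 0.0559, 0.0491, 0 and 0 CPM at P21 and 10.2, 16.7 and 20.3 CPM at P10 (adjusted p = 0.00407). Sgo2a, the protector of centromeric cohesion, was at 0.0559, 0.0491, 0 and 0 CPM at P21 and 12.5, 12.3 and 6.92 CPM at P10 (adjusted p = 0.0412). Cdc25c, the phosphatase that activates Cdk1, was at 0, 0.0491, 0.0455 and 0 CPM at P21 and 10.3, 18.7 and 6.96 CPM at P10 (adjusted p = 0.0128). These genes were not abundant at P10 either, at 22.8 CPM or less. Of the 7 fits that left out 1 pvMΦ library, Kif18b and Oip5 were called in 7, Cdc25c in 4, Pif1 in 2, and Mastl and Sgo2a in 0. Over all 12458 genes tested in the 7 libraries, 45 had 0 counts in all P21 libraries and 3 in all P10 libraries.

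Mki67, the proliferation antigen, shows the scatter at P21. It was at 0.0559, 27.4, 26.6 and 0 CPM in the P21 libraries and at 57.5, 37.2 and 42.5 CPM in the P10 libraries, with replicates 2 and 3 below the P10 range and replicates 1 and 4 near 0. Its log2 fold change of -1.82 ± 1.80 did not pass (adjusted p = 0.999). Top2a, topoisomerase II of dividing cells, was at 22.3, 41.1, 41.0 and 2.16 CPM at P21 and 124, 67.9 and 119.98 CPM at P10, and Birc5, survivin, at 1.17, 35.8, 18.7 and 2.57 CPM at P21 and 106, 121 and 102 CPM at P10. For both genes the groups did not overlap, and neither passed.

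The 28 genes of S phase and replication were also lower at P21, with a median log2 fold change of -1.74. Of them 27 had a fold change below 0 and 1 above, 19 had P21 libraries wholly below P10 libraries (7.36% of all genes), and 0 passed in either fit. The summed level was 855, 793, 745 and 663 CPM at P21 and 1449, 1652 and 1624 CPM at P10. Mcm5, a subunit of the replicative helicase, was at 0.391, 0.0491, 16.3 and 19.9 CPM at P21 and 106, 136 and 128 CPM at P10, and Mcm2, another subunit, was at 0.447, 27.9, 15.02 and 16.7 CPM at P21 and 92.9, 84.8 and 83.8 CPM at P10. Among the genes outside the list that fell in the 45-library fit were Pole, Neil3 and Tubb5. Pole, the catalytic subunit of the leading strand polymerase, was at 0, 0, 0 and 0.0919 CPM at P21 and 5.79, 7.63 and 7.86 CPM at P10 (adjusted p = 0.0224). Neil3, a DNA glycosylase of replicating cells, was at 0.0559, 0, 0.0910 and 0.0460 CPM at P21 and 14.3, 20.7 and 16.4 CPM at P10 (adjusted p = 0.00107). Tubb5, a β-tubulin, was at 75.2, 149, 302 and 155 CPM at P21 and 460.4, 439 and 442 CPM at P10 (adjusted p = 0.012).

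Promoters of division genes share short sequence elements, and 3 of them are shown, picked after their low values at P21 were seen. Sequences are from RefSeq on GRCm38.p6, written 5′ to 3′ in the direction of the gene, with the elements in capitals. For Cdk1 and Ttk these are the cell cycle homology region (CHR, TTTGAA, or TTCAAA on the other strand) and the CCAAT box (CCAAT, or ATTGG on the other strand). For Mcm5 it is an E2F element (TTTGGCGC, or GCGCCAAA on the other strand).
Cdk1 (chr10:69352863-69353162, minus strand): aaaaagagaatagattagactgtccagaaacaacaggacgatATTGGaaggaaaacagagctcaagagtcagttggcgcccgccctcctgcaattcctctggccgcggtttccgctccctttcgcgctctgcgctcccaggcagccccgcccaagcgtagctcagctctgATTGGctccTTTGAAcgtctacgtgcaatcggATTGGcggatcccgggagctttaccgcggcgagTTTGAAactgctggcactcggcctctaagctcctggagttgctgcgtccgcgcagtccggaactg
Ttk (chr9:83834439-83834738, plus strand): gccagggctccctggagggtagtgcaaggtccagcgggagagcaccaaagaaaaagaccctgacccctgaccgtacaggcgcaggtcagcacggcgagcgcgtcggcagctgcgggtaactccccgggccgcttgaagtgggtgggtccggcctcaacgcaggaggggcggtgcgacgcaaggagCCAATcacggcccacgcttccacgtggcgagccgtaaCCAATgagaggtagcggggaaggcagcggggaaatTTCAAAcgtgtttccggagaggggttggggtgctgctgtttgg
Mcm5 (chr8:75109259-75109558, plus strand): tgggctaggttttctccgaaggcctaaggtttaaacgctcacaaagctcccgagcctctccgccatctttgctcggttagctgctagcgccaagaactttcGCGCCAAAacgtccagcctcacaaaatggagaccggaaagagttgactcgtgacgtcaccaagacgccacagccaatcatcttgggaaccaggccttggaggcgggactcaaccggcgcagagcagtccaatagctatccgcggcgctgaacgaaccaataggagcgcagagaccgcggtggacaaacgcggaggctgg
Of the 30 G2/M genes, 25 had promoters in the RefSeq table, with 26 windows of the same length. A CHR was found in 19 of the 26 (73.1%, against 17.9% of all 32851 windows), a CCAAT box in 22 (84.6%, against 37.4%), and both in 18 (69.2%, against 6.95%). Among the S phase genes 24 of 28 were in the table, and 7 of their 29 windows (24.1%) held an E2F element in either of 2 forms (TTTCCCGC or TTTGGCGC, on either strand), against 1.56% of all windows. A match is a description of these letters and not of a bound site.

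Genes of antigen presentation on MHC class II were higher at P21. Of 10 members tested out of 11, all 10 had a fold change above 0, 6 had all P21 libraries above all P10 libraries (5.48% of all genes), and the median log2 fold change was 2.12. In the 45-library fit 6 rose (0.375% of all genes), namely H2-Ab1, H2-Aa, H2-Eb1, Cd74, H2-DMa and H2-DMb1, and in the 7-library fit 0 did. Their summed level was 8559, 1294, 4139 and 2956 CPM at P21 and 574, 453 and 365 CPM at P10. The P21 libraries differed widely among themselves, with replicate 1 the highest and replicate 2 the lowest, yet even replicate 2 was above all P10 libraries. Without P10 replicate 2 or 3 the 45-library fit called 2 members, without P21 replicate 1 it called 3, and within batch S232 it called 5.

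H2-Ab1, the β chain of I-A, was at 1909, 95.0, 859.6 and 676 CPM at P21 and 62.5, 10.5 and 10.1 CPM at P10 (45-library log2 fold change 5.04 ± 0.81, adjusted p = 0.000996; in the 7-library fit 4.95 ± 1.19 and 0.246). H2-Aa, its α chain partner, was at 929, 122, 601 and 553 CPM at P21 and 47.5, 4.79 and 5.80 CPM at P10 (adjusted p = 0.0244 in the 45 libraries). H2-Eb1, the β chain of I-E, was at 1069, 116, 523 and 344 CPM at P21 and 38.1, 6.65 and 2.20 CPM at P10 (adjusted p = 0.0387). In each of these 3 genes P10 replicate 1 was the highest of the P10 libraries. Cd74, the invariant chain that guides class II molecules to endosomes, was at 4175, 577, 1952 and 1089.9 CPM at P21 and was already expressed at P10, at 328, 306 and 242 CPM (log2 fold change 2.78 ± 0.56, adjusted p = 0.00999). H2-DMa and H2-DMb1 form the editor that loads peptides. H2-DMa was at 340.3, 182, 106 and 151 CPM at P21 and 49.7, 58.8 and 51.2 CPM at P10 (adjusted p = 0.000446), and H2-DMb1 at 61.4, 128, 83.7 and 88.2 CPM at P21 and 34.4, 40.6 and 34.3 CPM at P10 (adjusted p = 0.0265). At P56 the lowest, median and highest levels were 2591, 2974 and 5548 CPM for H2-Ab1 and 4787, 6759.9 and 11535 CPM for Cd74, above every P21 library for Cd74 and for H2-Ab1.

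The promoter of H2-Aa is shown since class II promoters carry a CCAAT element (Y box) as part of a known module, here ATTGG in capitals.
H2-Aa (chr17:34287774-34288073, minus strand): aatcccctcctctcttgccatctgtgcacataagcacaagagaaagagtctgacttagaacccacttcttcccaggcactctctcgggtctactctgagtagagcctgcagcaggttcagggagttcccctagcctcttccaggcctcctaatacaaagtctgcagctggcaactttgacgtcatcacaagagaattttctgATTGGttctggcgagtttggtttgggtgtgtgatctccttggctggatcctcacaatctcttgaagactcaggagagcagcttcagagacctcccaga
All 8 class II genes found in the RefSeq table had a CCAAT box, in 8 of 9 windows (88.9%, against 37.4% of all windows).

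Ccr2, the receptor for Ccl2 that is typical of monocytes and of some antigen-presenting cells, also rose in the 45-library fit. It was at 297, 22.1, 50.4 and 74.6 CPM at P21 and 4.51, 5.60 and 6.85 CPM at P10 (log2 fold change 4.31 ± 1.07, adjusted p = 0.0481), with P21 replicate 1 the highest for Ccr2 and for class II genes alike. Slamf9, a SLAM family receptor of macrophages and dendritic cells, was at 311, 64.0, 78.4 and 112 CPM at P21 and 36.9, 37.6 and 36.1 CPM at P10 (adjusted p = 0.0483), again with replicate 1 the highest. The summed level of 10 monocyte markers was 1307, 924, 973 and 688 CPM at P21 and 541, 496 and 505 CPM at P10, mostly from Nr4a1, and the classical monocyte gene Ly6c2 was near 0. The summed level of 10 dendritic cell markers was 884, 1310.2, 485 and 455 CPM at P21 and 338, 303 and 319 CPM at P10, with all P21 sums above the P10 sums. Most of that sum came from Siglech, which is also a microglia marker and was the 1 member called, in the 45-library fit (0.375% of all genes rose). Of the 6 members tested in the 7 libraries, 5 had a fold change above 0 and 1 below, with a median of 1.21. Cd209a, a C-type lectin of dendritic cells, was at 0.615, 81.8, 32.3 and 105 CPM at P21 and 1.84, 0.0778 and 5.98 CPM at P10, lowest at P21 in replicate 1, where class II genes were highest, and did not pass (log2 fold change 4.33, adjusted p = 0.701). Clec9a was at 0 in all 7 libraries, and Flt3, Xcr1, Ccr7 and Itgae were at 2.26 CPM or less in each library. The part of monocyte-derived and dendritic cells in the class II result was not tested.

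**Figure D2:**
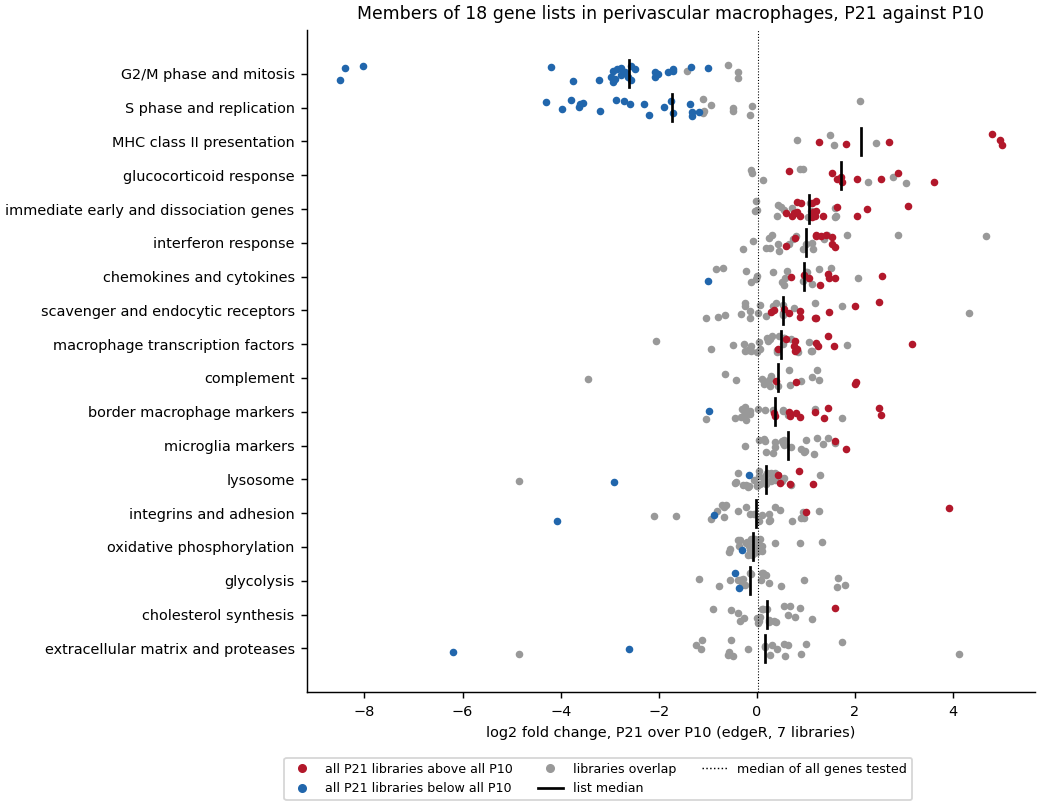
Each point is a gene, placed by its log2 fold change P21 over P10 from the 7-library fit, in 18 gene lists; red points had all P21 libraries above all P10 libraries, blue points the reverse, grey points overlapped, and bars mark list medians. The G2/M list lies wholly below 0 with a median of -2.60, and the class II list wholly above 0 with a median of 2.12.

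Immediate early genes, which encode short-lived transcripts that cells switch on within minutes of a stimulus and also while tissue is dissociated, were higher at P21. Of 34 members, 32 had a fold change above 0 and 2 below, and 19 had no overlap, all of them higher (5.48% of all genes). The median log2 fold change was 1.05, and the summed level was 18901, 21315, 25125 and 18309 CPM at P21 and 9296, 7729 and 9034 CPM at P10. All P21 sums were high. In the 7-library fit 2 rose (Dusp1 and Btg2), and in the 45-library fit 3 rose (Socs3, Atf3 and Klf6). Over all genes 0.0482% and 0.375% rose in these fits.

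Socs3, the feedback inhibitor of cytokine receptors that signal through Stat3, was at 198, 65.6, 132 and 143 CPM at P21 and 14.8, 14.0 and 17.6 CPM at P10 (45-library log2 fold change 2.94 ± 0.53, adjusted p = 0.00331). Atf3, a stress-induced transcription factor, was at 1994, 1827, 1457 and 789.9 CPM at P21 and 347, 227 and 354 CPM at P10 (2.34 ± 0.49, adjusted p = 0.0128). Klf6, a zinc finger factor of activated macrophages, was at 769, 1357, 1646 and 1434 CPM at P21 and 556, 514 and 587 CPM at P10 (1.23 ± 0.28, adjusted p = 0.0267). Several archetypes of the class did not pass although their groups did not overlap. Fos was at 2038, 2326, 2963 and 2651 CPM at P21 and 1239, 942 and 1163 CPM at P10 (7-library log2 fold change 1.11 ± 0.19, adjusted p = 0.152), and Egr1 at 1020.2, 1194, 1538 and 1232 CPM at P21 and 622, 422 and 519 CPM at P10 (1.21 ± 0.21, adjusted p = 0.178). Nfkbia, the inhibitor of NF-κB that NF-κB itself induces, was at 996, 912, 929.9 and 642 CPM at P21 and 363, 379 and 404 CPM at P10 (adjusted p = 0.141). At P56 the lowest, median and highest levels were 3932, 8256 and 9098 CPM for Fos and 2714, 4058 and 4810.4 CPM for Dusp1. The sources used here do not give how long the tissue of each age was processed, and the part of dissociation in these values was not tested.

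The promoters of Dusp1 and Btg2 are shown with their cyclic AMP response element (CRE, TGACGTCA, the same on both strands) in capitals. The other called members of this list, Socs3, Atf3 and Klf6, had no such element in their windows.
Dusp1 (chr17:26508423-26508722, minus strand): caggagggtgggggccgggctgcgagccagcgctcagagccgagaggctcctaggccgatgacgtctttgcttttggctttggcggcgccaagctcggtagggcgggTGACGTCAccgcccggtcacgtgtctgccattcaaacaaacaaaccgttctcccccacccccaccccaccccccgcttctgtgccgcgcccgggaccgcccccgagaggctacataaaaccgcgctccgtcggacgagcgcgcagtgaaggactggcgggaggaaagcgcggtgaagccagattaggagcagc
Btg2 (chr1:134079106-134079405, minus strand): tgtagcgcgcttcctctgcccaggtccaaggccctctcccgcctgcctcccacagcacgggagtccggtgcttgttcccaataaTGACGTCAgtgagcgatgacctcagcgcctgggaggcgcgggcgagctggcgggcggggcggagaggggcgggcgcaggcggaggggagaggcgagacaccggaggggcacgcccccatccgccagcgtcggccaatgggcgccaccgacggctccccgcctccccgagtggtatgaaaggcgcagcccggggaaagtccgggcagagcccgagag
The full element was found in 3 of 34 windows of the 28 immediate early genes in the table (8.82%, against 1.79% of all windows), namely in Dusp1, Btg2 and Ppp1r15a.

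Targets of the glucocorticoid receptor were also higher. Of 17 members tested out of 20, 15 had a fold change above 0 and 2 below, 9 had no overlap, all higher (5.48% of all genes), and the median was 1.72. The summed level was 5818, 7319, 6847 and 5135 CPM at P21 and 2106, 2017 and 2311 CPM at P10. Tsc22d3, the glucocorticoid-induced leucine zipper, was at 1229, 1833, 1447 and 619 CPM at P21 and 182, 227 and 237 CPM at P10 and rose in the 45-library fit (log2 fold change 2.54 ± 0.33, adjusted p = 3.66e-05; 0.0809 in the 7 libraries). It rose in mMΦ as well (2.65 ± 0.37, adjusted p = 0.00374). Mt2, a metallothionein, was at 63.7, 39.5, 51.2 and 13.4 CPM at P21 and 5.47, 5.60 and 5.41 CPM at P10 (45-library 3.10 ± 0.59, adjusted p = 0.00463). For both genes P21 replicate 4 was the lowest P21 library. Fkbp5, a cochaperone of the receptor, was at 14.9, 99.8, 209 and 134 CPM at P21 and 19.6, 7.98 and 20.8 CPM at P10, with overlap in replicate 1, and Sgk1, a kinase induced by the hormone, was at 262, 413, 169 and 419.8 CPM at P21 and 76.4, 104 and 93.9 CPM at P10 without overlap. Neither passed in the 45-library fit (adjusted p = 0.302 and 0.0823). This list shares 1 member, Dusp1, with the immediate early genes.

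Interferon-induced genes were higher at P21 as well. Of 29 members tested out of 30, 27 had a fold change above 0 and 2 below, 9 had no overlap, all higher (5.48% of all genes), and the median was 1.01. The summed level was 4646, 3740.3, 4111 and 3945 CPM at P21 and 2226, 2513 and 2226 CPM at P10. In the 7-library fit 1 member, Ifi207, was called (0.0482% of all genes rose), and in the 45-library fit 0 were (0.375% of all genes rose). Ifitm3, a membrane protein that restricts virus entry, was at 609.6, 493, 705 and 535 CPM at P21 and 203, 199 and 189.9 CPM at P10, just short of the threshold (log2 fold change 1.52 ± 0.18, adjusted p = 0.0526). Ifit3, which binds foreign RNA together with its relatives, was at 137, 118, 124 and 142 CPM at P21 and 32.9, 51.9 and 57.8 CPM at P10 (adjusted p = 0.234). Irf7, the master regulator of type I interferon, was at 235, 121, 104 and 66.5 CPM at P21, high in replicate 1, and at 61.2, 55.2 and 49.4 CPM at P10 (adjusted p = 0.571).

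**Figure D3:**
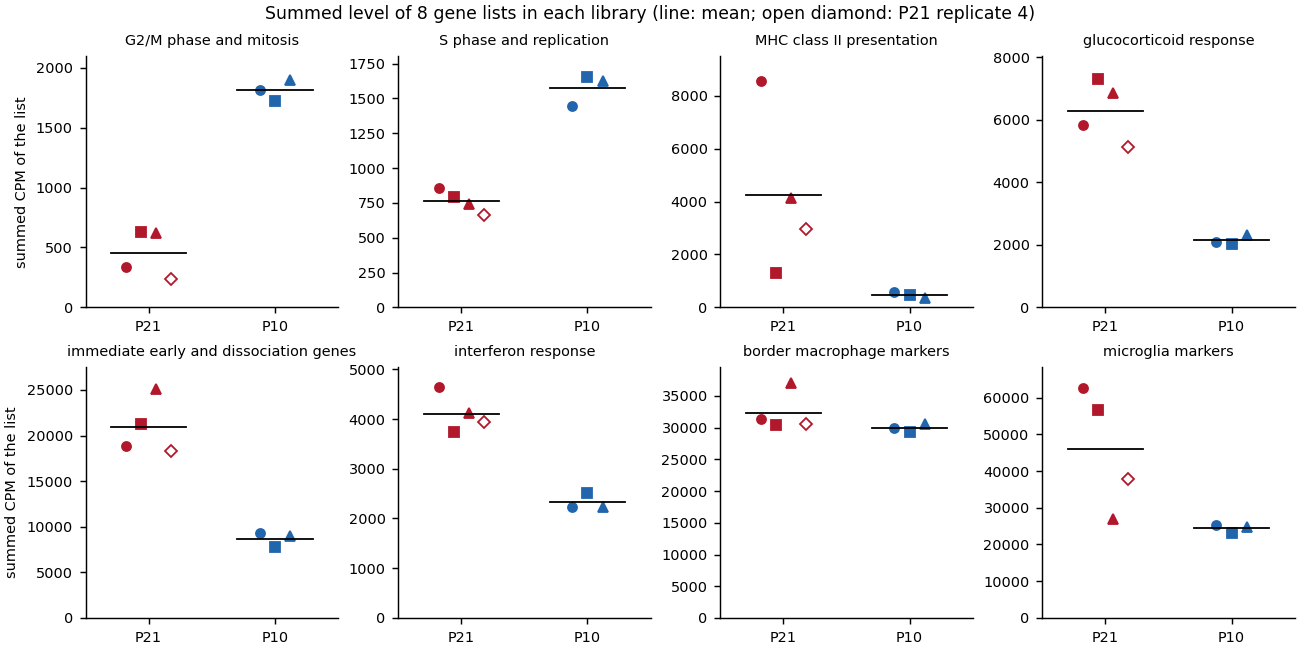
Summed CPM of the members of 8 gene lists in each library (linear axes from 0), with P21 in red left of P10 in blue and group means as lines. Division genes are lower in all P21 libraries, class II, glucocorticoid, immediate early and interferon genes are higher in all P21 libraries, and the border macrophage sums lie close together, at 30425 to 36990 CPM at P21 and 29250 to 30639 CPM at P10.

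The summed level of the border macrophage markers lay close between the ages. The sums of 30 markers were 31396, 30425, 36989.7 and 30598 CPM at P21 and 30023, 29250.00 and 30639 CPM at P10, with a median log2 fold change of 0.36. Of the 30, 11 lay wholly higher at P21 and 1 wholly lower (5.48% and 7.36% of all genes). In the 45-library fit 3 rose (0.375% of all genes), among them Cd209b and Cd14. Cd209b, a C-type lectin related to DC-SIGN, was at 28.8, 88.0, 43.9 and 94.8 CPM at P21 and 16.1, 9.42 and 7.39 CPM at P10 (log2 fold change 2.65 ± 0.59, adjusted p = 0.0236). Cd14, the coreceptor for lipopolysaccharide, was at 2770.2, 3361, 2857 and 1046 CPM at P21 and 1005, 839.6 and 976 CPM at P10 (1.42 ± 0.25, adjusted p = 0.00209), with P21 replicate 4 near the P10 range.

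Other border markers had no call. Wfdc17, a small secreted inhibitor of proteases, was at 784, 408, 433 and 622 CPM at P21 and 74.9, 122 and 84.0 CPM at P10 (7-library log2 fold change 2.54 ± 0.32, adjusted p = 0.0633). Clec4n, the C-type lectin Dectin-2, was at 848, 927, 734 and 744 CPM at P21 and 339.99, 334 and 368 CPM at P10 (1.18 ± 0.15, adjusted p = 0.0633). Igfbp4, a binding protein of insulin-like growth factors, was the 1 marker with all P21 libraries below P10, at 701, 733, 1195 and 842 CPM at P21 and 1599, 1583 and 1783 CPM at P10 (-0.98 ± 0.21, adjusted p = 0.246). Lyve1, the hyaluronan receptor, split the P21 libraries. It was at 658, 589.9, 1967 and 425 CPM at P21 and 1829, 1659 and 1923 CPM at P10, so replicate 3 lay above the highest P10 library and the other P21 libraries far below the lowest, with a fold change of -1.03 ± 0.49 that did not pass (adjusted p = 0.815). Folr2, folate receptor β, was at 157, 137, 170.2 and 121 CPM at P21 and 125, 132 and 124 CPM at P10. Maf, a transcription factor of macrophages, was at 657, 588, 861 and 494 CPM at P21 and 846, 668 and 749 CPM at P10, and neither passed.

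Several secreted and endocytic genes of macrophages also rose in the 45-library fit. Cst3, cystatin C, an inhibitor of cysteine cathepsins, was at 29391, 24012, 9134 and 11982 CPM at P21 and 5900.5, 6459.8 and 5654 CPM at P10 (log2 fold change 1.81 ± 0.22, adjusted p = 2.89e-05). Lyz2, lysozyme, was at 11214, 8537, 8599 and 4125 CPM at P21 and 3038, 3267 and 3236 CPM at P10 (1.51 ± 0.26, adjusted p = 0.0016). Among chemokines, Ccl6 was at 768, 472, 358 and 282 CPM at P21 and 162, 159 and 129 CPM at P10 (adjusted p = 0.000934), and Ccl9, its neighbour in the CC family, at 473, 340.2, 346 and 355 CPM at P21 and 196, 180.1 and 151 CPM at P10 (adjusted p = 0.000996). Cxcl16, both a chemokine and a scavenger of oxidised lipoprotein, was at 248, 121, 151 and 126 CPM at P21 and 45.7, 62.7 and 60.6 CPM at P10 (adjusted p = 0.0245). Fcgr2b, the inhibitory receptor for IgG, was at 1629.5, 1633, 1592 and 1202 CPM at P21 and 842, 732 and 819.5 CPM at P10 (adjusted p = 0.00463).

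Complement and lysosomal genes were called in the 45-library fit as well. C1qb, a chain of the first complement component, was at 17039, 16292, 11539 and 9084 CPM at P21 and 7389.9, 9255 and 8336 CPM at P10 (log2 fold change 0.84 ± 0.12, adjusted p = 0.000154), with replicate 4 inside the P10 range. C1qa was at 7158, 5989.8, 6067 and 5352 CPM at P21 and 4256, 4714 and 4714 CPM at P10 (adjusted p = 0.0113). Ctss, cathepsin S, which trims the invariant chain, was at 9171, 9450.5, 4188 and 4268 CPM at P21 and 2706, 3162 and 3005 CPM at P10 (1.26 ± 0.21, adjusted p = 0.00144). Ctsh, cathepsin H, was at 2274, 1496, 1232 and 1146 CPM at P21 and 721, 885 and 859 CPM at P10 (adjusted p = 0.00407). Cd53 and Cd81, tetraspanins of the leukocyte surface, and Itm2b, a membrane protein that inhibits amyloid formation, rose too. Cd53 was at 2443, 1734, 1526 and 2460.3 CPM at P21 and 1048, 1044 and 1074 CPM at P10, Cd81 at 1080.2, 1907, 545 and 1136 CPM at P21 and 427, 426 and 495 CPM at P10, and Itm2b at 12303, 11913, 8858 and 8447 CPM at P21 and 6596, 6859 and 6760.2 CPM at P10 (adjusted p = 0.00325, 0.0016 and 0.00222 in the 45 libraries). Over whole lists, 3 of 19 tested complement genes, 2 of 37 lysosomal genes, 3 of 29 chemokines and cytokines and 3 of 32 scavenger receptors rose in the 45-library fit. None of these 4 lists had a member that fell. Over all genes 0.375% rose and 0.234% fell in that fit. The median log2 fold changes of these 4 lists were 0.43, 0.19, 0.96 and 0.53 in the 7-library fit.

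Lists of metabolism and adhesion lay near the median of all genes. The list median was -0.08 for oxidative phosphorylation (31 tested, 0 wholly higher and 1 wholly lower), -0.13 for glycolysis (24, 0 and 2), 0.20 for cholesterol synthesis (23, 1 and 0) and -0.01 for integrins and adhesion (28, 2 and 2). Over all genes 5.48% lay wholly higher and 7.36% wholly lower. Apart from Vcam1, no gene of the adhesion list was called. Itgb1, the β1 integrin chain, was at 573, 520.3, 449 and 432 CPM at P21 and 575, 433 and 564 CPM at P10. Tgfb1, transforming growth factor β1, lay wholly lower at P21, at 64.2, 51.1, 107 and 107 CPM against 158, 157 and 162 CPM at P10, and did not pass (adjusted p = 0.436). Apoe, the lipoprotein gene and the most abundant of the genes described here, was at 62111, 70254, 63961 and 23433 CPM at P21 and 31782, 36365 and 37154 CPM at P10, with replicate 4 below the P10 range and the other P21 libraries above it (adjusted p = 0.927).

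Microglia markers were mostly higher at P21, to a different extent in each library. The sum of 24 markers was 62574, 56689, 27009.6 and 37872 CPM at P21 and 25400.5, 23190.3 and 24739 CPM at P10, and 23 of the 24 had a fold change above 0 and 1 below, with a median of 0.63. All P21 sums lay above the P10 sums, with replicate 3 only just above them. In the 45-library fit 4 rose (0.375% of all genes), namely Selplg, Cst3, Tmem119 and Siglech. Tmem119, a membrane protein of microglia, was at 889, 832, 251 and 767 CPM at P21 and 248, 245 and 289 CPM at P10 (log2 fold change 1.27 ± 0.30, adjusted p = 0.04). Siglech, a sialic acid lectin, was at 853, 1132, 404 and 275.98 CPM at P21 and 293, 277 and 290.4 CPM at P10 (adjusted p = 0.0113). Selplg, the ligand of P-selectin, was at 1629, 1418, 419 and 652 CPM at P21 and 283, 262 and 301 CPM at P10 (adjusted p = 0.00404). In the narrower list of 13 microglia markers the sums were 24824, 23317, 10728 and 17161 CPM at P21 and 12373, 11188 and 12533 CPM at P10. The levels of Cst3, Ctss and C1qb were likewise lower in P21 replicates 3 and 4 than in replicates 1 and 2. The part of microglia in the sort in these values was not tested.

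Markers of oligodendrocytes and of fibroblasts were present at low levels. Of 18 oligodendrocyte markers 10 were tested, and 4 lay wholly higher and 1 wholly lower (5.48% and 7.36% of all genes). The sum of the list was 5556, 6208, 6002 and 4979.8 CPM at P21 and 3364, 3759 and 3922 CPM at P10, mostly from Trf, transferrin, which macrophages also express. Trf was at 5076, 5534, 5588 and 4527 CPM at P21 and 3201, 3581 and 3766 CPM at P10 and rose in the 45-library fit (adjusted p = 0.0113). Mobp, a myelin protein, was at 0, 149, 51.8 and 44.5 CPM at P21 and 3.17, 2.65 and 4.04 CPM at P10. It did not pass and was listed at 0 in P21 replicate 1, where Mbp was at 229.7 CPM. The lineage genes Olig2 and Sox10 were near 0 in all 7 libraries. Of 20 fibroblast markers 15 were tested, 9 with a fold change above 0 and 6 below, and 4 lay wholly higher and 2 wholly lower. The sum of that list was 252, 429.8, 362 and 548 CPM at P21 and 119.6, 91.7 and 128 CPM at P10. Ptgds, prostaglandin D synthase of leptomeningeal cells, was at 84.4, 157, 153 and 288 CPM at P21 and 21.4, 11.2 and 12.3 CPM at P10 (7-library adjusted p = 0.0865). Col3a1, a collagen chain of fibroblasts, was the reverse, at 0.280, 0.294, 0.0910 and 0.230 CPM at P21 and 14.4, 11.2 and 22.9 CPM at P10. Apod and Ptgds are themselves members of the fibroblast list and made up most of its sum at P21. Mbp is likewise a member of the oligodendrocyte list. The part of oligodendrocytes and fibroblasts in the values of Mbp and Apod was not tested.

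**Figure D4:**
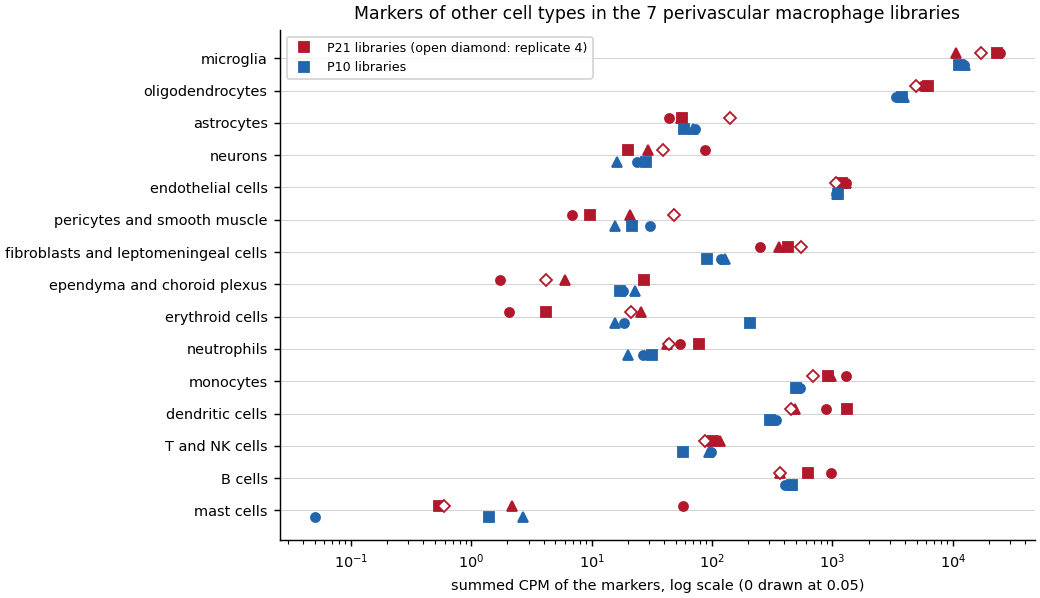
Summed CPM (log scale) of marker lists of 15 other cell types in each of the 7 libraries, P21 in red above P10 in blue. Microglia markers reach 10728 to 24824 CPM at P21 and 11188 to 12533 CPM at P10, whereas fibroblast markers stay at 252 to 548 CPM at P21 and 91.7 to 128 CPM at P10.

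Microglia and mMΦ of the same ages gave the comparison for what was particular to pvMΦ, tested as the difference of the P21 against P10 changes in 1 fit of 21 libraries. Against microglia, 29 of 14920 genes had a higher change in pvMΦ (0.194%) and 1 a lower change (0.0067%). Against mMΦ, 0 genes differed in either direction (0%), with 1176 at an unadjusted p under 0.05, while DESeq2 called 247 and limma 8. Without single pvMΦ libraries the count against microglia was 5, 6 and 5 (P10 replicates 1 to 3) or 63 and 87 (P21 replicates 3 and 4), and within batch S232 it was 76. Without single libraries of the other populations it was 18, 11 and 13 (microglia P10 replicates 1 to 3), 17, 19 and 19 (microglia P21 replicates 2 to 4) or 13 and 18 (mMΦ P10 replicates 1 and 2). Against mMΦ it was 8 and 9 without pvMΦ P21 replicates 3 and 4, 3 without mMΦ P21 replicate 1 or replicate 3, and 4 within batch S232. Within microglia 73 genes rose (0.489%) and 134 fell (0.898%), and within mMΦ 23 rose (0.154%) and 0 fell (0%).

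For 4 division genes the change itself differed between pvMΦ and microglia. The median log2 fold change of the G2/M list was -2.60 in pvMΦ, from the 7-library fit. In the fit of 21 libraries it was -6.62 in microglia and -0.41 in mMΦ. By the test of the difference, 3 of its 30 members, Cdk1, Pbk and Cenpf, had a higher change in pvMΦ than in microglia (0.194% of all genes). Cdk1 fell in microglia by 3.76 on the log2 scale (adjusted p = 1.64e-06), and the change was 2.39 ± 0.38 higher in pvMΦ (adjusted p = 0.0111). Pbk, a mitotic kinase, was at 0.0559, 18.1, 30.7 and 5.84 CPM at P21 and 82.1, 66.7 and 86.3 CPM at P10 in pvMΦ, and its change was 8.18 ± 1.41 higher than in microglia (adjusted p = 0.0214). Cenpf, a kinetochore protein, was at 44.1, 29.5, 66.1 and 63.5 CPM at P21 and 83.6, 58.3 and 81.2 CPM at P10, and the difference was 6.31 ± 1.09 (adjusted p = 0.0214). Cdca8, borealin of the chromosomal passenger complex, differed by 5.87 ± 1.11 (adjusted p = 0.0346).

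Of the 30 border macrophage markers 5 had a higher change in pvMΦ than in microglia (0.194% of all genes), namely Mrc1, Folr2, Igfbp4, Dab2 and Gas6. Mrc1 fell in microglia by 3.48 on the log2 scale (adjusted p = 2.00e-06), beside -0.24 in pvMΦ in the 7-library fit. The difference in the fit of 21 libraries was 3.32 ± 0.38 (adjusted p = 0.000353). Apoe fell in microglia by 1.76 (adjusted p = 0.00122), beside 0.59 in pvMΦ in the 7-library fit. Its difference in the fit of 21 libraries was 3.03 ± 0.37 (adjusted p = 0.000896). Gpx3, an extracellular glutathione peroxidase, was at 558, 628, 761 and 565 CPM at P21 and 301, 301 and 366 CPM at P10 in pvMΦ and fell by 7.25 in microglia, a difference of 8.08 ± 0.79 (adjusted p = 5.58e-05). Lyz2 fell by 0.94 in microglia (adjusted p = 0.0036) and rose in mMΦ (0.94 ± 0.17, adjusted p = 0.0325), and its change in pvMΦ exceeded that in microglia by 2.69 ± 0.22 (adjusted p = 7.17e-06). For Folr2, for Fcna, a ficolin of macrophages, and for Igfbp4 the change in pvMΦ exceeded that in microglia by 4.16 ± 0.74, 4.32 ± 0.82 and 2.11 ± 0.31 (adjusted p = 0.0251, 0.0346 and 0.00697). In mMΦ the log2 fold changes of Mrc1, Folr2, Dab2, Gas6, Fcna, Gpx3 and Apoe were 0.08, 0.18, -0.19, 0.17, -0.12, 1.27 and 0.47. None of the genes in this paragraph passed the test of the difference between pvMΦ and mMΦ, which called 0 of 14920 genes.

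Of the genes that were higher in P21 pvMΦ, Mt2, Cd74, Socs3, Atf3 and Ifitm3 differed in their change from microglia, by 4.14 ± 0.57, 3.58 ± 0.64, 3.36 ± 0.66, 2.96 ± 0.48 and 1.81 ± 0.30 (adjusted p = 0.00318, 0.0271, 0.0459, 0.0131 and 0.0192). In microglia their log2 fold changes were -0.99, -0.56, -0.49, -0.65 and -0.21, none of which passed. In mMΦ they were 0.63, 0.66, 1.36, 0.74 and 1.16, none of which passed. The change in pvMΦ exceeded that in mMΦ by 2.52 ± 0.59, 2.36 ± 0.68, 1.52 ± 0.66, 1.57 ± 0.48 and 0.45 ± 0.32. None passed the test of that difference, which called 0 of 14920 genes, so the changes are not shown to be equal. The difference from microglia did not pass for Vcam1, Mbp, Dusp1, Btg2 and H2-Aa (adjusted p = 0.42, 0.405, 0.174, 0.456 and 0.318). The 1 gene with a lower change in pvMΦ was Sesn1, a stress-induced sestrin, which rose in microglia (1.10 ± 0.17, adjusted p = 0.00211) and was at 431, 348, 355 and 755 CPM at P21 and 432, 401 and 481 CPM at P10 in pvMΦ (difference -1.22 ± 0.23, adjusted p = 0.032).

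**Figure D5:**
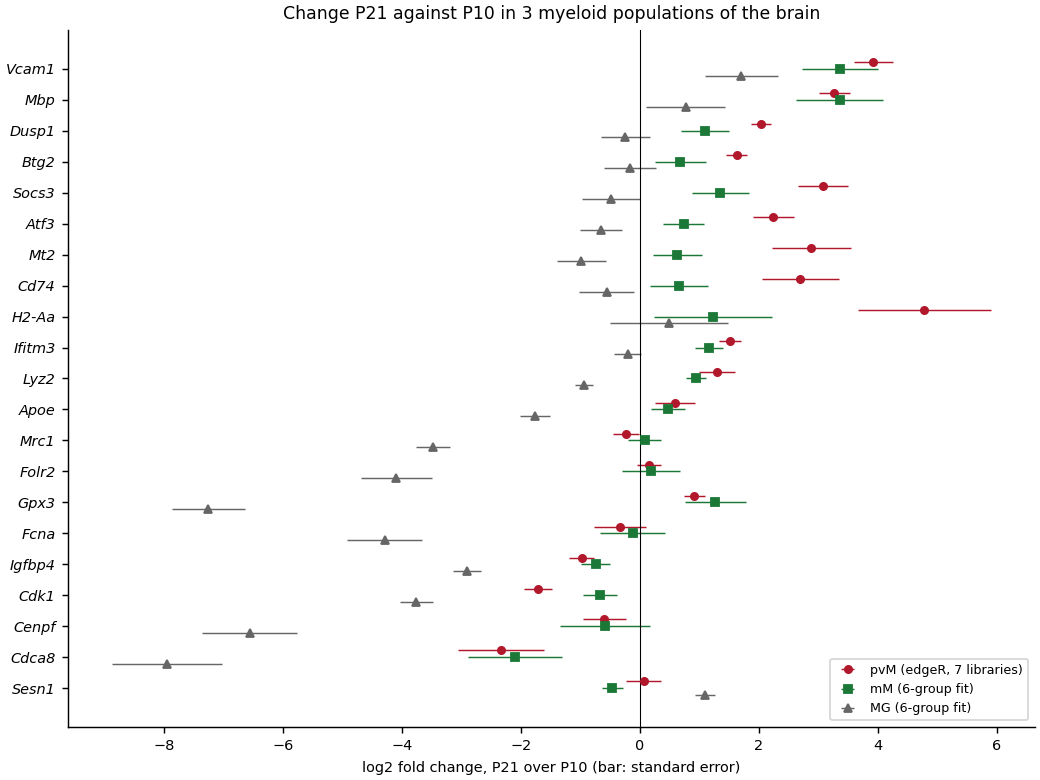
Log2 fold change P21 over P10 (point) with its approximate standard error from the F statistic (bar) of 21 genes in pvMΦ (7-library fit), mMΦ and microglia (both from the fit of 6 groups). Vcam1 lies right of 0 in all 3 populations, Mrc1, Folr2, Gpx3 and Fcna lie far left of 0 in microglia only, and Cdk1 lies further left in microglia than in pvMΦ.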

How the data were processed

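Cells were sorted, RNA was extracted and full-length cDNA libraries were made with the SMARTer v4 and Nextera XT kits, per the labels' protocols. The deposited table holds whole-number counts per gene symbol, which the authors made with bcl2fastq 2.18, STAR 2.7.8a and featureCounts 2.0.2, per the submitters' processing notes. The genome build, the annotation, the strand setting and the handling of reads shared by gene copies are not given in the sources at hand, so values of close paralogs, among them the class II genes, are uncertain to that extent.

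The counts were tested with edgeR 4.0.16 in R 4.3.3 (quasi-likelihood test, TMM scaling, filterByExpr at a minimum count of 10, Benjamini-Hochberg adjustment over all genes tested at 0.05). The main comparison used the 7 pvMΦ libraries without a batch term, since P21 replicate 4 is the only one from batch S276. Differences from microglia and mMΦ used the 21 libraries of 6 groups with a batch term. CPM shown use TMM-scaled totals from the 45 libraries. Alternatives were DESeq2 1.42.0, limma 3.58.1, other scalings, filters and sets of libraries. The tests were checked on simulated counts. Lists of genes are described by counts and medians, without a set test. A count of 0 at P21 was bounded at 3 counts over the group, which covers counting error and not the spread between libraries. In the 7-library fit, with 3 and 4 libraries per group, p-values measure the spread between replicates, each 1 mouse by the series' design. That spread includes P21 replicate 4 of the other batch. In the 45-library fit the spread was estimated over 13 groups, whose common dispersions ran from 0.0686 to 0.465. It can therefore be too small or too large for P21 and P10 pvMΦ. In the fit of 21 libraries it was shared by 6 groups.

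Called genes were named if their groups did not overlap and 1 group averaged 5 CPM or more, up to 15 per direction, or up to 8 for the differences, together with up to 5 called and 2 abundant uncalled members of each list and 16 followed genes. The rule was applied to both fits. Many other members of the lists, among them Cdk1, Ifitm3, Ptgds, Cst3, Lyz2, C1qb, Ctss, immediate early genes such as Egr1, and the myelin and collagen genes, were added after their values were seen. A few genes that the rule or the lists hold are not reported here. All members and lists were chosen with earlier results of these data known. Promoter sequences, 1 or more windows per gene, came from RefSeq.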

Additional observations from a re-analysis of the deposited data

Results flagged for a closer look

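Of 147 measures, 12 had a P21 library far from the other 3, judged by the share of the P21 range that the gap to the nearest library took up, with Dixon's critical value as the limit. Chance marks about 1 group in 20 in this way if values are normally distributed, which was not tested for these CPM. For single genes the share was 1 for Bub1 (replicate 1, at 0.224 CPM with the others at 0) and 1 for Pole (replicate 4, at 0.0919 CPM with the others at 0). With all other libraries at 0 the share is always 1, so these 2 marks do not show an unusual library. It was 0.849 for Lyve1 (replicate 3, the highest), 0.889 for Ccl9 (replicate 1, the highest), 0.905 for Fcgr2b (replicate 4, the lowest) and 0.956 for Spp1 (replicate 2, the highest). For summed lists it was 0.852 for border macrophage markers (replicate 3, at 36990 CPM), 0.835 for cholesterol efflux (replicate 4, at 27989 CPM) and 0.850 for clock genes (replicate 1, at 285 CPM). For other cell types it was 0.870 for astrocyte markers (replicate 4, at 139.9 CPM), 0.830 for ependyma and choroid plexus markers (replicate 2, at 27.2 CPM) and 0.971 for mast cell markers (replicate 1, at 57.6 CPM).

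The change P21 against P10 differed between pvMΦ and microglia, by the test of the difference itself, in 19 of the genes described here. On the log2 scale the change in pvMΦ was higher by 8.18 for Pbk, 8.08 for Gpx3, 6.31 for Cenpf and 5.87 for Cdca8. It was higher by 4.32 for Fcna, 4.16 for Folr2, 4.14 for Mt2, 3.58 for Cd74, 3.36 for Socs3, 3.32 for Mrc1 and 3.03 for Apoe. It was higher by 2.96 for Atf3, 2.69 for Lyz2, 2.39 for Cdk1, 2.11 for Igfbp4, 1.81 for Ifitm3, 1.51 for Dab2 and 1.41 for Gas6, and the difference was -1.22 for Sesn1. In microglia the standard errors rest on 5 libraries at P21 and 3 at P10. None of these genes passed the test of the difference between pvMΦ and mMΦ, which called 0 of 14920 genes.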

How the results depend on the processing

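For P21 against P10 the count of called genes was 6, and it was 24 without the filter on low counts, 310 with the DESeq2 Wald test, 53 with limma (voom with sample weights), 104 over all 45 libraries, 18 over the 11 pvMΦ libraries and 0 to 9 when leaving out each library in turn. The count of the 45-library fit, 104, ranged from 20 to 159 in that way. The replicate numbers did not pair the samples (correlations of deviations of same-numbered libraries of -0.05, 0.04 and -0.01), and with the replicate number as a block 0 genes were called. Against microglia the count was 30, and it was 400 with DESeq2, 10 over 45 libraries, 11 without the batch term, 76 within batch S232, 16 with the replicate block and 5 to 87 when leaving out each library. Against mMΦ it was 0, and it was 247 with DESeq2, 8 with limma, 1 over 45 libraries, 4 within batch S232 and 0 to 9 when leaving out each library. The cause of these shifts was not tested. Of 1573 fold changes of named genes under the alternatives, 1565 kept their sign and 8 did not: Sall1 was at -0.54 with limma and -0.10 with the block, and Sesn1 at -0.00911 with limma, -0.0280 over 45 libraries, -0.12 over 11 pvMΦ libraries, -0.21 within batch S232 (that is, without P21 replicate 4) and -0.27 with the block, and Sesn1 ran from -0.21 to 0.20 when leaving out each library. Scaling by total counts shifted all fold changes by -0.19 on the log2 scale, and by DESeq2 size factors by 0.04. Counts without overlap ran from 26 to 27 of 30 for G2/M genes and from 6 to 8 for class II genes when leaving out each library. The wide scatter at P21 and 3 to 4 libraries per group limit what could be called, and a gene without a call is not shown to be equal.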

Other observations

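The genes of alternative activation and of the amoeboid, phagocytic state of early postnatal microglia given here were chosen after their values were seen. Retnla, a secreted resistin-like factor of alternatively activated macrophages, was at 7.83, 89.8, 411 and 114 CPM at P21 and 1446, 562 and 649.8 CPM at P10, wholly lower but not called (log2 fold change -2.56 ± 1.01, edgeR adjusted p = 0.664). Arg1, arginase 1, was at 0, 18.6, 5.28 and 2.07 CPM at P21 and 52.8, 51.5 and 30.2 CPM at P10 (adjusted p = 0.855). Lgals1, galectin 1, was at 801, 427, 583 and 463 CPM at P21 and 1073, 1344 and 1029 CPM at P10 (-1.06 ± 0.24, adjusted p = 0.246).

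In the other direction, Axl, a receptor for apoptotic cells, was at 526, 113, 84.2 and 222 CPM at P21 and 71.2, 42.0 and 59.6 CPM at P10, and Clec7a, the β-glucan receptor Dectin-1, was at 306, 83.3, 118 and 144 CPM at P21 and 79.4, 64.9 and 60.6 CPM at P10. Neither gene had overlapping groups and neither passed (adjusted p = 0.478 and 0.607). Spp1, osteopontin, was at 41.1, 863, 3.37 and 16.9 CPM at P21 and 387, 338 and 261 CPM at P10, so P21 replicate 2 lay above all P10 libraries and the other 3 far below them. C4b, the fourth complement component, was at 94.2, 101, 151 and 220.2 CPM at P21 and 43.7, 23.2 and 34.4 CPM at P10, without overlap and without a call (adjusted p = 0.246). Csf1r, the receptor on which macrophage survival depends, was at 5183, 5474, 5699 and 6138 CPM at P21 and 5534, 4018 and 4842 CPM at P10, and Cx3cr1, which carries the reporter, at 422, 968, 611 and 825 CPM at P21 and 789.8, 803 and 828 CPM at P10.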
